A study of Apis mellifera with 6 samples.

Results

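The regions described here are 1244 sites of open chromatin in the honey bee (Apis mellifera) brain that held an ATAC-seq peak in both worker and both drone libraries and in neither queen library. ATAC-seq uses the transposase Tn5, which inserts into DNA that is free of nucleosomes, and a peak marks a stretch where such insertions pile up. Peaks from all 6 libraries were merged wherever they shared at least 1 bp, which gave 60136 sites, of which 59043 lay on the 16 assembled chromosomes (LG1 to LG16). The 1244 sites were chosen from those placed sites by their calls alone. The absence of a queen call is therefore how they were selected and not a result. It means that no queen peak passed the caller's threshold, and the lists give no queen signal at these places.

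The study profiled central brains of newly eclosed adults, with 2 libraries for each of workers, drones and queens, each from a pool of dissected brains. Workers and queens are diploid females whose fates diverge through larval feeding, and drones are haploid males from unfertilised eggs. No treatment was given, and the labels name only the brain and the caste. Optic lobes were taken off before pooling. Because each library mixes the cells of several brains, a site open in fewer cells and a site less open in each cell cannot be told apart. The deposited lists held 36529 and 39158 peaks for workers, 38341 and 31921 for drones, and 30538 and 28026 for queens. The depth estimated from the peaks was 4201048 and 4093683 nucleosome-free fragments for workers, 5529342 and 4139507 for drones, and 5700584 and 4795853 for queens, so the queen libraries were not the shallowest. Peak names in both worker and both queen lists carried the same sequencing-run label, and those in the drone lists did not carry it. A difference in run, if there was one, cannot be told apart from drone against the others.

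Open chromatin in the brain holds promoters, where transcription starts, and enhancers, which are often found in introns and in the space between genes and are bound by transcription factors that raise or lower the output of a gene. In insects, enhancers tend to differ more between cell types and states than promoters do. Hormones such as ecdysone and juvenile hormone, and nutrient signals through insulin receptors, are known to act during the divergence of queen and worker bees.

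Of 19923 placed sites called in both worker and both drone lists, 1244 (6.24%) were in no queen list, 2440 were in 1 queen list and 16239 were in both. The queen and worker sites with no drone call numbered 1152, and the queen and drone sites with no worker call numbered 164. The absent-from-queen pattern was thus close in number to the absent-from-drone pattern, and both were more numerous than the absent-from-worker pattern. When every list was trimmed to the length of the shortest, 28026 peaks, 472 sites remained absent from queens, against 1160 absent from drones and 347 absent from workers, so the order of the first 2 patterns depended on list length. Leaving out 1 library removes a condition of the rule, so a higher number comes with the looser rule. The number was 2756 without queen replicate 1 and 2182 without queen replicate 2. It was 2093 without worker replicate 1 and 1814 without worker replicate 2. Without drone replicate 1 it was 1553, and without drone replicate 2 it was 2055.

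The rule sits on a threshold, and values near it differ little. Just inside, the site at LG15:4665046-4665275 was called in drone replicate 1 at a −log10 q of 2.01 with 9 fragments at the summit, and the site at LG11:4908207-4908703 was called in worker replicate 1 at 2.03 with 14 fragments. Another, at LG4:7589904-7590165, was called in drone replicate 1 at 2.04 with 7 fragments. Just outside were sites in all 4 worker and drone lists with 1 weak queen call. At LG2:13754926-13755138 queen replicate 1 had a −log10 q of 2.04 with 8 fragments, at LG6:15938783-15938909 queen replicate 2 had 2.05 with 8 fragments, and at LG13:11213805-11214015 queen replicate 1 had 2.07 with 7 fragments. Among the 2440 sites with 1 queen call, that call had a median −log10 q of 6.08 and reached 95.3. A further 2533 sites had no queen call and a call in 3 of the 4 worker and drone lists.

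The 1244 sites were of modest strength in all 4 libraries that held them. Fold enrichment divides the fragments stacked at the summit by the background around it, after 1 is added to each. With so few background fragments, the added 1 makes it lower than the plain ratio and dependent on depth. The median fold enrichment was 5.13 and 5.29 in workers and 5.50 and 5.24 in drones. At the 16239 sites in all 6 lists it was 8.54 and 9.07 in workers, 8.67 and 8.02 in drones and 7.17 and 7.19 in queens. Modest fold was shared by the other patterns. At sites absent from drones it was 5.81 and 6.15 in workers and 4.97 and 5.15 in queens. At sites absent from workers it was 5.69 and 5.30 in drones and 4.85 and 4.82 in queens. The median summit held 13 and 13 fragments in workers and 17 and 13 in drones. The deeper drone replicate 1 had the higher pileup, and after scaling to a depth of 1000000 nucleosome-free fragments (the scaled pileup) the 4 libraries lay close together, at 3.09 and 3.18 fragments in workers and 3.07 and 3.14 in drones.

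The sites lay in the lower ranks of each list. Their median percentile of −log10 q was 33.7 and 34.7 in workers and 44.4 and 35.8 in drones. In the worker lists 75.9% and 72.6% of the sites fell in the lower 50% of the list, and in the drone lists 59.2% and 72.7% did. The top 10% of a list held 2 and 0 of the sites in workers and 4 and 4 in drones. By the weakest of its 4 calls, a site had a median fold of 4.34. Of the 1244 sites, 482 had a −log10 q of at least 5 in all 4 lists, 25 had at least 10, and 7 had a fold of at least 8 throughout.

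**Figure D1:**
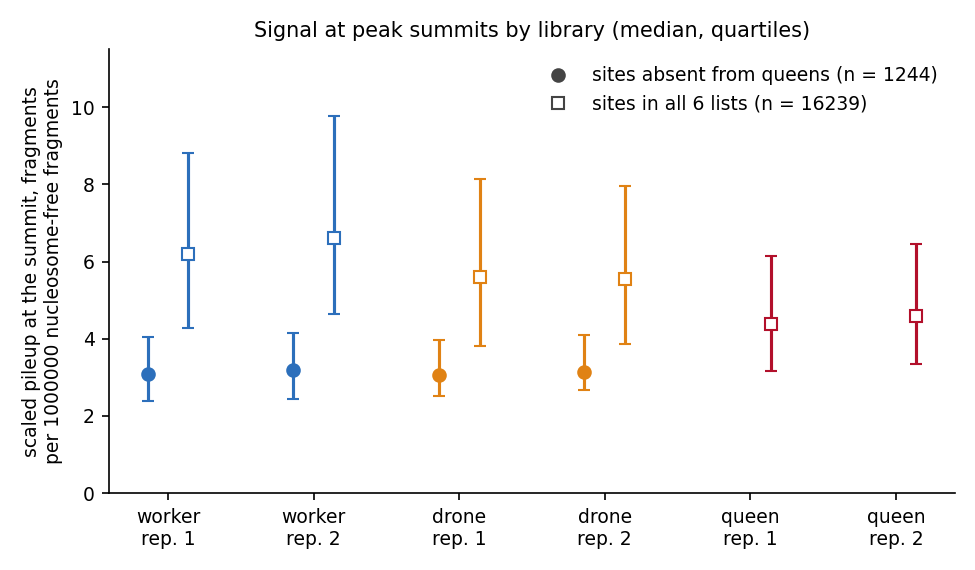
Scaled pileup at the summit, in fragments per 1000000 nucleosome-free fragments (vertical axis), in each library, as the median (points) with quartiles (bars), at the sites absent from queens (filled circles) and at sites in all 6 lists (open squares). The filled medians lie between 3.07 and 3.18 in workers and drones, queens have none by the rule, and the open medians of 4.39 and 4.59 in queens lie below those of the other 4 libraries.

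At the sites that all libraries shared, summit signal was lowest in the 2 queen libraries. The median scaled pileup at the 16239 common sites was 6.19 and 6.60 fragments in workers and 5.61 and 5.56 in drones, against 4.39 and 4.59 in queens. The part of this library-wide shift in the missing queen calls was not tested. As arithmetic, the lowest depth-scaled pileup of each site among its 4 lists corresponds to a median of 13.8 fragments at the depth of queen replicate 1 and 11.6 at that of queen replicate 2. The weakest peak called in either queen list had 7 fragments. A second calculation used the median of each site's 4 lists, not the lowest, relative to the common-site median of each library. On that measure the 1244 sites stood at a median of 53.0%. Scaled to the queen signal at common sites, the medians were 13.3 and 11.7 fragments. With the local background of each site, 1243 (99.9%) and 1239 (99.6%) of these scaled values passed the lowest −log10 p that was called in the queen lists. This is a calculation from worker and drone signal and not a measurement in queens, and the sites were picked for having 4 calls, which favours high values there. It leaves out sampling between libraries, and reaching the lowest value ever called does not give the probability of a call. The calculation therefore cannot say why the queen calls are missing.

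Loss of a call followed the strength of a site for every phenotype. Of the sites in both worker and both drone lists whose mean percentile of −log10 q was under 20, 43.1% had no queen call. That share was 24.8% for percentiles 20 to 40, 8.35% for 40 to 60, 1.17% for 60 to 80 and 0.0493% above 80, the last being 3 of 6082 sites. For drones the same 5 shares were 30.4%, 20.8%, 8.35%, 1.88% and 0.281%, and for workers they were 6.70%, 3.96%, 1.44%, 0.113% and 0.0190%. Queens and drones had the same share in the middle bin, and queens the higher share in the 2 weakest.

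**Figure D2:**
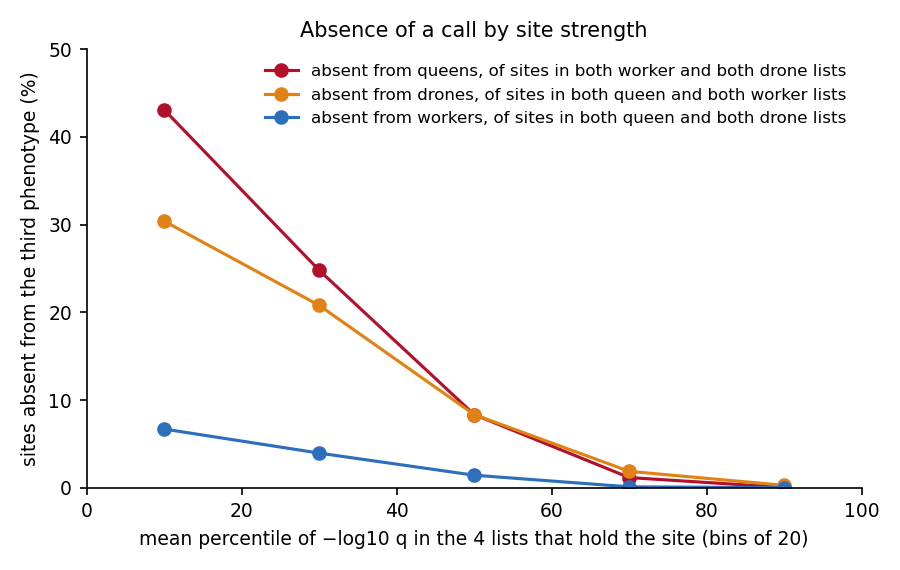
Share of sites with no call in the remaining phenotype (vertical axis, percent) by the mean percentile of −log10 q in the 4 lists that held the site (horizontal axis, bins of 20). The queen line falls from left to right, with 43.1% in the weakest bin and 0.0493% in the strongest, and lies above the drone line in the 2 weakest bins.

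In extent, the sites were narrower than shared ones. Their merged width had a median of 197 bp (quartiles 145 and 258 bp) against 257 bp for sites in all 6 lists. It was 210 bp for sites absent from drones, 173 bp for sites absent from workers and 151 bp for all placed sites. Widths ran between 72 and 933 bp, with 3 sites at or under 80 bp and 56 over 400 bp. The summits in the 4 libraries spread over a median of 57 bp, against 47 bp at sites in all 6 lists, and stayed within 50 bp at 43.3% of the sites, against 53.5%.

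The sites were mainly inside genes and seldom at their ends. A gene body of the RefSeq table overlapped 1059 of them (85.1%, 95% Wilson interval 83.0 to 87.0%), beside 82.0% of sites in all 6 lists, 80.9% of all placed sites, 74.1% of sites absent from drones and 71.3% of sites absent from workers. Only 137 (11.0%, interval 9.39 to 12.9%) lay within 200 bp of a gene start or end, beside 29.5% of sites in all 6 lists, 14.2% of all placed sites, 6.08% of sites absent from drones and 15.2% of sites absent from workers. The interval covers counting error only, and neighbouring sites are not independent. Without queen replicate 1 the gene-end share was 16.5%, which is above that of all placed sites. The table gives no strand or exons, so starts were not separated from ends, nor introns from exons. The 185 sites between genes were a median of 3215 bp from the nearest gene end, and 9.32% of all the sites overlapped a long noncoding RNA gene.

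**Figure D3:**
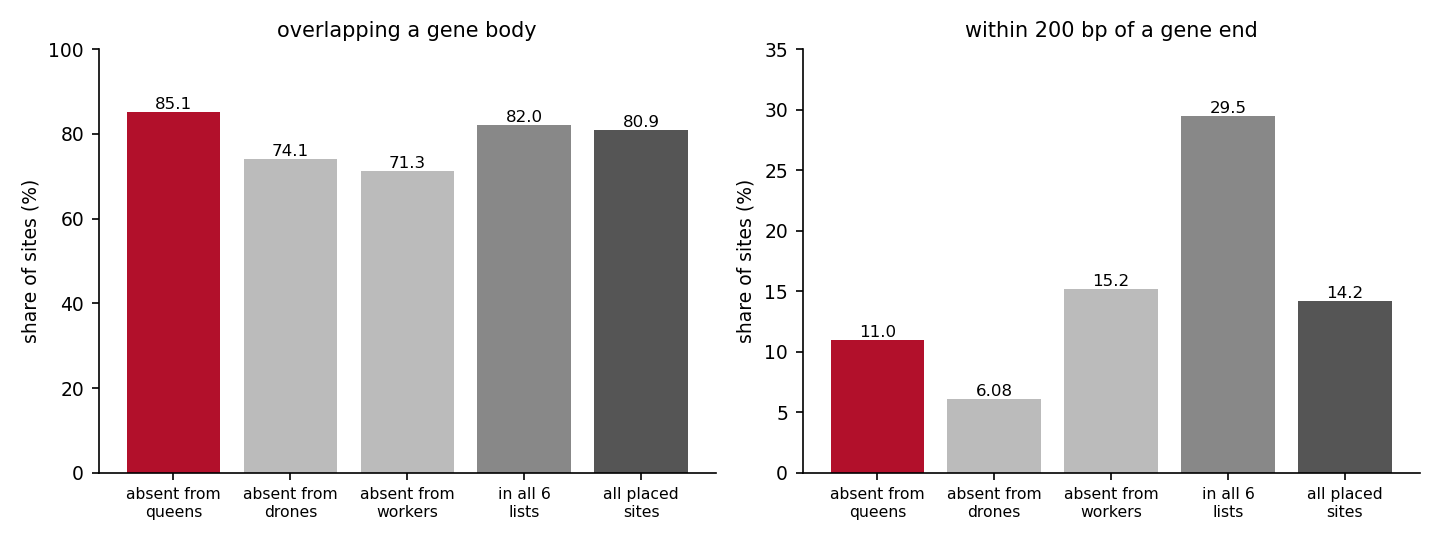
Share of sites (vertical axes, percent) that overlap a gene body (left) or lie within 200 bp of a gene end (right), for the sites absent from queens, from drones and from workers, for sites in all 6 lists and for all placed sites. The sites absent from queens stand at 85.1% in gene bodies and 11.0% near gene ends, and the sites in all 6 lists at 82.0% and 29.5%.

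Queen peaks were seldom far away. The nearest was a median of 1580 bp off, 279 sites (22.4%) had one within 500 bp, 28 had one within 100 bp, and 58 (4.66%) had none within 10 kb. The median distance to the nearest drone peak was 2095.5 bp for the sites absent from drones, and that to the nearest worker peak was 1178 bp for the sites absent from workers. The stretches between neighbouring queen peaks that held one of the sites numbered 1178 and had a median length of 8.1 kb (quartiles 4.56 and 14.7 kb). Of these stretches, 1117 held 1 site, 57 held 2, 3 held 3 and 1 held 4. The nearest other site of the set was a median of 42789 bp away, and 209 sites (16.8%) had one within 10 kb.

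They occurred on every chromosome. The share of sites in both worker and both drone lists that had no queen call ran between 4.92% on LG14 (41 of 833) and 7.23% on LG15 (62 of 858), and LG1, with the most sites, had 138 of 2421 (5.70%).

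The stretch that held 4 of the sites lay on LG3 inside LOC412243, a gene of 82.2 kb. The first at LG3:12116726-12116980 had folds of 3.40 and 4.09 in workers and 2.64 and 3.48 in drones. The second at LG3:12119484-12119711 had 3.48 and 3.38 in workers and 5.64 and 5.13 in drones. The next at LG3:12126997-12127166 had 5.86 and 6.08 in workers and 7.43 and 4.21 in drones, and the last at LG3:12132228-12132424 had 4.72 and 5.04 in workers and 5.73 and 3.77 in drones. None exceeded a fold of 8, and only at the second did both drone values lie above both worker values. Within the 15.7 kb from the first to the last site the worker lists held 5 and 7 peaks and the drone lists 7 and 5, against 0 and 0 in the queen lists, and the gap between the flanking queen peaks was 17.9 kb. In the 10 kb on either side all 6 libraries had peaks again. This stretch was chosen for its lack of queen calls.

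**Figure D4:**
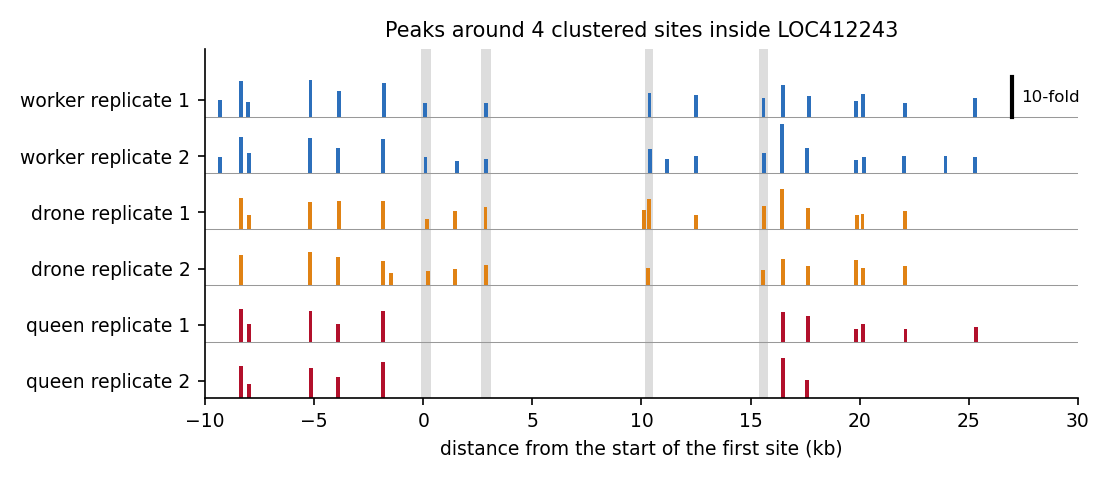
Peaks in each of the 6 libraries around the 4 clustered sites (grey bands) inside LOC412243, with bar height giving the fold enrichment of the peak and the black bar a fold of 10. The horizontal axis is the distance in kb from the start of the first site. Workers and drones have peaks across the 15.7 kb between the outer bands, and both queen rows are empty there.

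The strongest sites by mean rank were few and, in part, unusually narrow. The site at LG9:11845423-11845495 inside LOC727000 was only 73 bp wide and had 40 and 31 fragments at the summit in workers and 72 and 81 in drones. Its folds were 15.1 and 13.0 in workers and 21.3 and 28.0 in drones, and the nearest queen peak was 4454 bp away. The site at LG6:1900004-1900075 inside LOC725799 was 72 bp wide and had 41 and 24 fragments in workers and 86 and 92 in drones. Its folds were 14.7 and 8.50 in workers and 21.2 and 26.3 in drones. At both, the 2 drone values lay above the 2 worker values, and a width close to 1 fragment with so high a summit is uncommon in the set, where only 3 sites were at or under 80 bp.

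Other strong sites were wider, between 111 and 343 bp. At LG6:1864636-1864978 (343 bp, inside LOC725706) the fold was 8.96 and 9.84 in workers and 15.2 and 14.2 in drones. At LG1:9062840-9062950 (inside LOC727263) it was 11.2 and 9.54 in workers and 11.9 and 10.6 in drones, and a queen peak lay 269 bp away. The groups overlapped at the second of these and not at the first. At LG2:9972955-9973183, which is between genes and 1356 bp from the nearest gene end, the fold was 6.28 and 9.83 in workers and 8.23 and 8.43 in drones. At LG3:11057334-11057449, inside LOC409857, it was 6.12 and 5.52 in workers and 7.25 and 8.10 in drones, with a queen peak 145 bp off.

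Among the 6 sites with the highest weakest fold was LG3:12300242-12300381, at the end of LOC551235, where the fold was 13.1 and 8.80 in workers and 11.6 and 8.67 in drones. The site at LG12:7945001-7945265, in the space 272 bp from a gene end, had folds of 8.72 and 8.80 in workers and 14.2 and 10.6 in drones. The nearest queen peak was 5803 bp from that site. The widest site, 933 bp at LG6:7269667-7270599 inside LOC408894, had folds of 5.25 and 5.36 in workers and 4.08 and 3.93 in drones, so that both worker values were the higher there. The next widest, 672 bp at LG10:3645041-3645712 between genes, had 5.08 and 6.32 in workers and 6.25 and 6.28 in drones.

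At gene level, 877 of 12255 genes (7.16%) held at least 1 of the sites in the body or 200 bp on either side. Of these, 661 held 1 site, 143 held 2 and 73 held 3 or more, and 774 were protein-coding genes and 98 long noncoding RNA genes. They were long genes, with a median of 32.5 kb against 5.77 kb for genes with a site in all 6 lists and 3.62 kb for all genes. Among genes of 100 kb or more 55.2% held one (217 of 393), beside 34.2% at 50 to 100 kb, 15.0% at 10 to 50 kb and 2.44% under 10 kb. The share of worker and drone sites that lacked a queen call also differed by gene length, at 8.41% in genes of 100 kb or more, 7.49%, 6.67% and 3.81% in genes under 10 kb. Most of the genes, 733 (83.6%), also held a site called in all 6 lists.

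The gene with the most sites was LOC411157 on LG6 (512 kb), with 8 of its 33 sites called in both worker and both drone lists lacking a queen call, where 6.24% is the share over all such sites. It had 61 and 70 peak summits in workers and 82 and 68 in drones, against 40 and 36 in queens. LOC724344 on LG3 held 7 of 49, LOC408944 on LG7 6 of 59, LOC411827 on LG15 6 of 26 and LOC551123 on LG2 6 of 26. The strongest single value among the 8 in LOC411157 was a fold of 10.8 in worker replicate 2 at LG6:11393618-11393821, where worker replicate 1 had 6.73 and the drones 4.56 and 4.70. Per 100 kb, among genes with at least 4 of the sites, LOC411534 on LG7 came first with 6.90, followed by LOC724704 with 6.21, LOC412243 with 4.87, LOC100576528 with 3.74 and LOC411827 with 3.59. These genes were ranked on the count itself, so no test was made, and the reference table gives no function for them.

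Among genes of known role, 23 of the sites lay in 11 genes of the lists examined. Their folds ran between 2.85 and 8.80, and their nearest queen peaks were between 131 and 9011 bp away. Both worker folds lay above both drone folds at 4 of the 23 sites and both drone folds above both worker folds at 5. These 9 sites compare with 538 (43.2%) of the whole set and 48.3% of the 19923 sites in both worker and both drone lists.

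The first list held transcription factors that the study placed in a regulatory network or found by motif. Mad, the effector that carries signals of the BMP family into the nucleus in Drosophila, was the only holder among the 4 of 22 matched by symbol. Br-c, the Broad-Complex gene, stands in the table under a symbol that the listed name br did not match, and it is described with the genes named after their values were seen. The 5 sites in Mad were among 38 called in both worker and both drone lists across a gene of 409 kb. At LG15:1126134-1126350 the fold was 6.64 and 8.48 in workers and 4.88 and 4.67 in drones, and at LG15:1188645-1188885 it was 6.78 and 4.40 in workers and 8.26 and 7.22 in drones. The groups did not overlap at either, in opposite directions. The remaining sites in Mad were at LG15:972038-972209, LG15:1138101-1138353 and LG15:1170839-1170981, with folds between 3.86 and 6.36, and workers were higher at the first of these alone. Over the whole gene Mad had 59 and 68 summits in workers and 94 and 64 in drones, against 43 and 33 in queens. Ecr, which pairs with Usp as the ecdysone receptor, had 42 and 51 summits in workers and 45 and 37 in drones, against 41 and 34 in queens. Usp had 21 and 20 in workers and 20 and 17 in drones, against 18 and 18 in queens. The Hox gene Ubx had 23 and 23 in workers and 19 and 14 in drones, against 21 and 20 in queens. Ecr, Usp and Ubx held none of the sites, among 30, 14 and 13 called in both worker and both drone lists. Over all sites called in those 4 lists the share is 6.24%, beside which the counts of these genes and of Mad are to be read.

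Of the genes of hormone and nutrient signalling, 7 of 16 were matched and 3 held 7 of the sites. E74, an ETS-domain factor induced by ecdysone in Drosophila, held 4 of 33. At LG3:3446046-3446238 the fold in E74 was 4.42 and 3.69 in workers and 5.06 and 6.56 in drones, and at LG3:3463591-3463731 it was 4.49 and 4.06 in workers and 3.57 and 3.55 in drones. Drones were higher at the first and workers at the second. The other E74 sites were at LG3:3344620-3344830 and LG3:3464693-3464886, where the groups overlapped. E75, an ecdysone-induced nuclear receptor, held 1 of 21 at LG11:10316950-10317228, with folds of 5.56 and 3.35 in workers and 4.73 and 5.34 in drones. InR-2, which encodes an insulin receptor, held 2 of 6. At LG2:14585814-14585999 the fold in InR-2 was 6.07 and 4.72 in workers and 7.37 and 5.87 in drones, and at LG2:14544715-14544859 it was 3.91 and 2.85 in workers and 3.12 and 3.93 in drones. The groups overlapped at both. Kr-h1, a target of juvenile hormone, and Dnmt3, a DNA methyltransferase, held none.

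Of the transmitter and amine receptors, 23 of 26 were matched and 3 held 4 of the sites. The nicotinic acetylcholine receptor subunit gene nAChRa3 held 2 of 14. At LG5:12139951-12140318 its folds were 6.49 and 8.25 in workers and 7.02 and 4.82 in drones, and at LG5:12169081-12169315 they were 6.34 and 4.60 in workers and 5.87 and 7.82 in drones. The related subunit nAChRa1 had one at LG9:8102604-8102720, at 6.78 and 8.32 in workers and 6.91 and 5.95 in drones. The dopamine receptor gene Dop1 had one at LG15:7364066-7364362, with folds of 4.88 and 5.43 in workers and 5.29 and 4.37 in drones, where a second gene, LOC113219284, overlaps. At all 4 the worker and drone values overlapped.

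Of the adhesion and guidance genes, 5 of 18 were matched and 2 held 5 of the sites. Nrx-1 encodes neurexin, a presynaptic adhesion protein, and held 3 of 12. At LG5:2523102-2523324 the fold in Nrx-1 was 4.84 and 3.91 in workers and 5.78 and 6.26 in drones, and at LG5:2586118-2586253 it was 4.36 and 4.40 in workers and 7.02 and 5.78 in drones. Drones were higher at both. At LG5:2641388-2641735 the groups overlapped, with 6.03 and 5.69 in workers and 5.46 and 6.62 in drones. NLG-5, a neuroligin of the postsynaptic side, held 2 of 10. At LG9:7205492-7205826 its folds were 4.36 and 4.89 in workers and 5.53 and 5.78 in drones, and at LG9:7212992-7213132 they were 7.27 and 8.80 in workers and 5.78 and 7.71 in drones. Drones were higher at the first and the groups overlapped at the second. NLG-3, NLG-4 and Dscam held none.

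**Figure D5:**
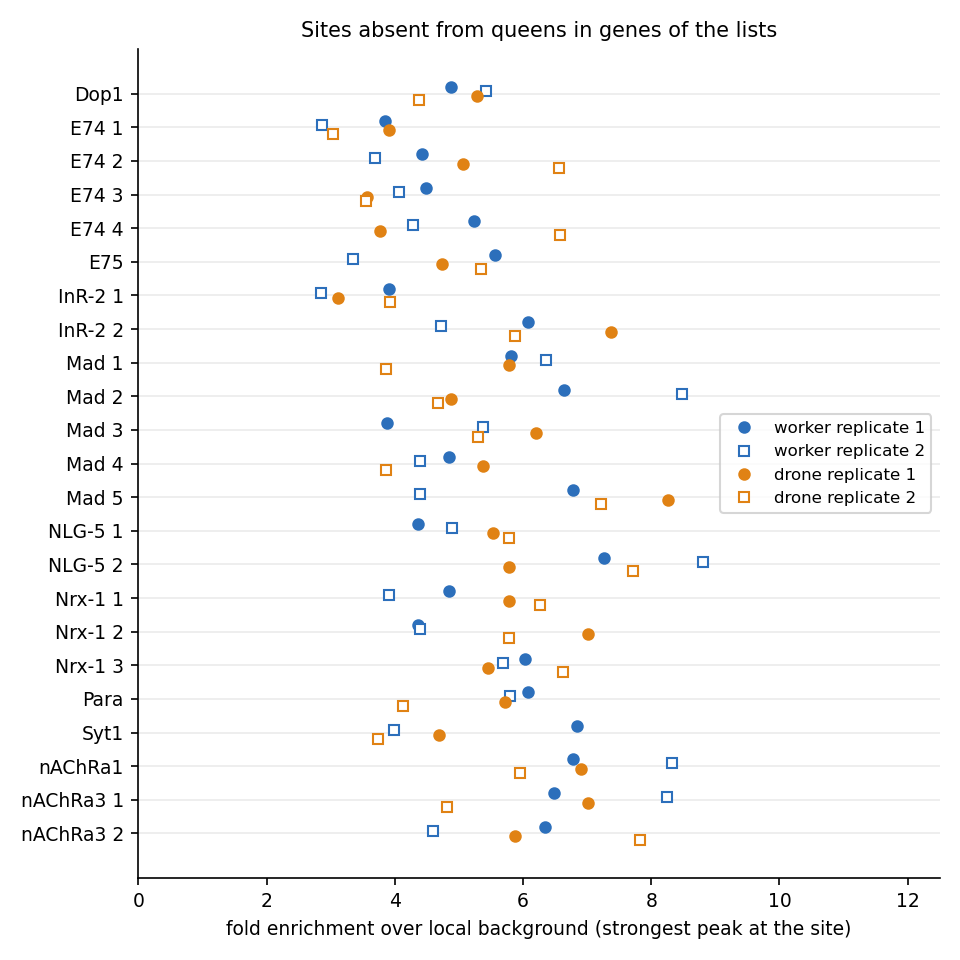
Fold enrichment over local background (horizontal axis) in the 2 worker and 2 drone libraries at each of the 23 sites absent from queens in genes of the lists (rows, numbered along the chromosome where a gene holds several). Values run between 2.85 and 8.80, and the worker and drone points are mixed in most rows.

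The markers of cell types gave the following. Of the neuronal markers, 3 of 9 were matched, and all had peaks in every library. Syt1, the calcium sensor of synaptic vesicles, had 6 and 4 summits in workers and 4 and 4 in drones, against 1 and 2 in queens, and it held a site at LG1:5132900-5133006 with folds of 6.84 and 3.99 in workers and 4.69 and 3.74 in drones. Para, the voltage-gated sodium channel, had 18 and 21 summits in workers and 19 and 21 in drones, against 16 and 14 in queens. Its site at LG9:6453435-6453551 had folds of 6.07 and 5.80 in workers and 5.72 and 4.13 in drones. The active-zone gene brp had 11 and 14 summits in workers and 9 and 11 in drones, against 12 and 10 in queens, and held none of the sites. The 13 fat body and gland genes, among them Vg and the royal jelly protein genes, had 5 and 6 summits in all in workers and 3 and 3 in drones, against 4 and 3 in queens, and none of the sites. The 4 of 6 photoreceptor genes that were matched had 2 and 3 summits in workers and 3 and 3 in drones, against 2 and 2 in queens, and none of the sites. No glial or muscle marker was matched by its listed name. GlnS, by its symbol a glutamine synthetase gene, an enzyme found in glia, was noticed after its values were seen. It had 6 and 7 summits in workers and 7 and 6 in drones, against 3 and 3 in queens. Its 1 site of the set, of 5 called in both worker and both drone lists, lay at LG6:16827685-16828013 with folds of 4.53 and 5.61 in workers and 4.85 and 3.09 in drones. One gene does not check the glial share of a library, and its part in the results was not tested. The 2 clock genes matched, Per and Cry2, held none of the sites.

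Of the 23 matched receptors, 3 held one and, of the 5 matched adhesion genes, 2 did, where 7.16% of all genes did and 55.2% of genes of 100 kb or more did. Of the 17 listed genes of 100 kb or more, 6 held one. The counts are small, and no list was tested.

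Of the 819 genes with a symbol of their own, 38 (4.64%) held a site, beside 7.16% of all genes. Of these, 27 were outside the lists, and those described next were chosen after their values were seen. CSP6, a chemosensory protein gene of 2.15 kb, had no site other than 2 of the set. At LG1:25100395-25100504 the fold in CSP6 was 4.82 and 6.36 in workers and 7.85 and 9.16 in drones, and at LG1:25101703-25101822 it was 6.06 and 4.89 in workers and 6.61 and 7.71 in drones. Drones were higher at both, and the nearest queen peak was 1676 bp from the second. The gustatory receptor gene Gr10 held 2 of the sites, and it had no other site called in both worker and both drone lists. At LG4:10526777-10526937 the fold in Gr10 was 4.03 and 5.36 in workers and 6.90 and 7.07 in drones, and at LG4:10530884-10531063 it was 6.78 and 4.40 in workers and 8.38 and 7.58 in drones. Drones were again higher at both. CSP6 was 1 of 4 genes that held 2 or more of the sites and no queen summit at all, the others being LOC406147, LOC113219237 and the long noncoding RNA gene LOC102655184.

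For, the cGMP-dependent protein kinase gene named for foraging, held 2 of 16. At LG13:10120205-10120432 its folds were 5.32 and 7.64 in workers and 5.97 and 5.59 in drones, and at LG13:10151620-10151753 they were 5.81 and 5.38 in workers and 5.37 and 4.82 in drones. Workers were higher at the second only. In sGC-alpha1, a soluble guanylyl cyclase subunit gene, the site at LG6:10410434-10411079 had folds of 3.39 and 7.09 in workers and 6.91 and 7.30 in drones, and its call in worker replicate 1 rested on 6 fragments, the lowest summit called there. The site near sGCbeta-3, another cyclase subunit gene, at LG5:13166901-13167297 and 160 bp from the gene, had 4.18 and 3.99 in workers and 7.12 and 4.23 in drones.

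Br-c, the Broad-Complex factor of the ecdysone response, held 1 of 7 at LG13:3320665-3320924, with folds of 7.03 and 6.29 in workers and 4.74 and 3.76 in drones. The gene ecd, needed for ecdysone production in Drosophila, held one at LG1:27714573-27714732, with 7.27 and 8.17 in workers and 3.98 and 4.80 in drones. Workers were higher at both. Foxp, a forkhead factor, held 1 of 9 at LG13:5421012-5421206, with 7.98 and 5.56 in workers and 5.36 and 6.34 in drones, where the groups overlapped. AChE-2, an acetylcholinesterase gene, held 1 of 7 at LG8:7554091-7554343, with 4.36 and 3.91 in workers and 8.68 and 3.86 in drones, so that drone replicate 1 alone was high.

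Whether workers and drones differed at the sites was tested on the library medians. The rule did not use their relative strength, but it required a call in each library, which is a threshold on related values. That shared floor can draw the medians together, so near-equal medians do not show equal strength. The mean of the medians was 5.21 ± 0.116 fold in workers (SD, n = 2) and 5.37 ± 0.184 in drones (SD, n = 2), a difference of −0.16 (exact permutation test, two-sided, p = 0.667). The scaled pileup was 3.14 ± 0.0574 in workers and 3.11 ± 0.0466 in drones (exact permutation p = 0.667). Peak width was 112 bp in both worker libraries and 142 and 120 bp in the drone libraries, a difference of −19.0 bp that reached the smallest p this design allows, 0.33. After adjustment over the 3 tests (Benjamini-Hochberg) all exact p-values were 0.667, and 2 against 2 libraries cannot reach 0.05. At the sites in all 6 lists the mean scaled pileup was 6.39 in workers and 5.58 in drones.

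Site by site, both worker folds lay above both drone folds at 226 of the 1244 sites (18.2%), beside 28.1% of the 19923 sites in both worker and both drone lists. Both drone folds lay above both worker folds at 312 (25.1%), beside 20.2%. By scaled pileup, workers were higher at 340 (27.3%), beside 40.5%, and drones at 272 (21.9%), beside 14.9%. The direction that was the more frequent at the sites thus depended on the measure. Under both measures, the share with workers higher was below that over all such sites and the share with drones higher was above it. The background includes the 1244 sites, and most of it is sites of greater strength.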

How the data were processed

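ATAC-seq was made from central brains in 2 worker, 2 drone and 2 queen libraries, grouped by their titles. Same-numbered libraries come from separate pools, and p-values measure the spread between pools. Alignment by the authors used BWA (0.7.17, per the submitters' processing notes) and Amel_HAv3.1. Fragments of up to 100 bp were kept, and MACS2 called peaks per library (genome size 2.7e+08 bp). How duplicate fragments were treated is not given in the sources used here, so independent molecules cannot be counted. The deposited lists hold, for each peak, a score, a fold enrichment (a ratio), and −log10 p and −log10 q values, as the authors' caller gave them.

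Whole summit pileups were solved from the deposited fold and −log10 p (residual under 5% of a step, 100% of peaks), and depth from the commonest and local backgrounds. Sites were unions of peaks that overlapped by 1 bp, with the strongest peak by −log10 q standing for each library. Genes were 12255 placed entries of a RefSeq table of the same assembly, which gives no strand or exons. Symbols were matched without regard to case or hyphens. The pileup solution and the merging of peaks were tested on simulated data, and the depth estimate was not. Python 3.11.15, pandas 2.3.3, numpy 2.4.6 and scipy 1.17.1 were used.

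The sites, gene lists and rules were chosen with earlier results of these data known. Sites described in full were the 6 of best mean rank, the 6 with the highest weakest fold, the 2 widest, those in the genes with the most sites (5 by number, 5 per 100 kb) and those in the gene lists. The planned motif counts and the sites in promoter windows need sequence and strand and were not run, and no sequence is shown. Alternatives were other peak thresholds, equal list length, other overlap rules, other measures, a replicate block and leaving out each library.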

Additional observations from a re-analysis of the deposited data

How the results depend on the processing

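The number of sites was 472 at equal list length, 693 with a summit of at least 12 fragments, 482 with a −log10 q of at least 5 in the worker and drone lists, and 641 where each peak had to cover 50% of the site. It ran between 1553 and 2756 when 1 library was left out, which loosens the rule. Of the 472 sites at equal length, 417 overlapped one of the 1244. With a −log10 q of at least 5 in every list there were 955 sites, of which 482 overlapped one, since weak queen peaks were then dropped too. The gene-body share was 87.1% with a −log10 q of at least 5 in the worker and drone lists and between 83.6% and 84.6% without 1 library. The gene-end share was 13.0%, 14.6%, 15.7%, 15.1% and 15.6% under the threshold in all lists, equal length, summit, threshold in worker and drone lists, and cover settings, 8.39% with no queen peak within 500 bp, and between 8.89% (without worker replicate 1) and 16.5% (without queen replicate 1) with 1 library left out. Each of these was below 29.5%, the share among common sites. Against all placed sites, at 14.2%, the direction varied. The shares of 14.6%, 15.7%, 15.1%, 15.6% and 16.5% were above it, and the others given here were below.

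By scaled pileup, workers were higher at 340 sites. By fold they were higher at 226, and at 358 to 439 without 1 library, drones at 442 to 532 without 1 library. With 1 library left out, or with the replicate block below, the condition is looser, so the counts cannot be lower. The worker minus drone difference of medians was 0.0276 fragments by scaled pileup, opposite in sign to that in fold, and between −0.294 and −0.0343 fold without 1 library. Same-numbered libraries did not vary together (correlations of deviations between −0.00441 and 0.0113), so the numbers do not pair them. With the replicate block the counts were 314 and 424 and the difference −0.164 fold (exact sign-flip p = 1.0). At equal length, sites absent from workers numbered 347. The cause of the other shifts was not tested. The depth limits the weakest calls, which rest on 6 or 7 fragments.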

Other observations

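Sequences not assigned to a chromosome held 1093 of the merged sites, and 15 of these had the same calls, in both worker and both drone lists and in no queen list, beside 264 in all 6 lists. They were left out of the values above by the rule, which kept placed sites only, and genes on those sequences were not counted. More than 1 peak of a library fell into the same site at 17 and 26 of the 1244 sites in workers and at 15 and 14 in drones. A further stretch between queen peaks that held 3 of the sites lay at LG8:1790313-1797466 (7.15 kb). It falls in LOC107964884 and in the overlapping LOC413914, which had 8 and 8, and 6 and 6, summits in the worker libraries and 7 and 8, and 6 and 6, in the drone libraries, against 4 and 4, and 3 and 3, in the queen libraries.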
